A study of Homo sapiens with 6 samples.

Results

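The interferon response and sensing genes are described here in HCT116 cells that carry mutant or wild-type β-catenin. They are 51 genes chosen by name, of the 18236 genes in the deposited RNA-seq table, and cover the interferon receptors and their kinases, the transcription factors of the pathway, the cytosolic RNA sensors and the antiviral effectors. HCT116 is a human colorectal cancer line, and the study compared derivatives of it with 1 remaining allele of CTNNB1, which encodes β-catenin. The mutant cells, HCT116-CTNNB1-/Δ45, have their wild-type allele disrupted and keep the Δ45 allele, and the wild-type cells, HCT116-CTNNB1 WT/-, have the mutant allele disrupted. Each line has 3 replicates, both were kept in the same medium, and the labels name no treatment, interferon included. Each genotype is represented by 1 line, so that β-catenin status and other differences between the lines cannot be told apart. Whether the 3 replicates of a line come from separate cultures is not stated in the labels. The p-values therefore cover the spread among these samples, and that spread may be technical.

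Interferons are secreted proteins that bind receptors at the cell surface. The receptor-bound kinases JAK1 and TYK2 then activate STAT proteins, and a complex that holds STAT2 and IRF9 enters the nucleus and binds the interferon-stimulated response element of their target genes. Sensors of viral RNA such as RIG-I and MDA5 act upstream of this loop through IRF3 and IRF7, which switch on the interferon genes. Many genes of the response are also transcribed at a basal level without added interferon.

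The values are normalized counts, that is reads per gene divided by 1 size factor per sample. The recovered reads in genes came to 57.9, 33.5 and 35.2 M in the mutant and 29.5, 41.4 and 21.8 M in the wild-type replicates. Here and below, the values of a line are given in the order of its replicate numbers 1, 2 and 3. The replicates numbered 1 stood apart from their own lines. The SD of the log2 difference over genes was 0.51 between mutant replicate 1 and wild-type replicate 1, against 0.84 and 0.85 between mutant replicate 1 and the other mutant replicates, and 0.67 and 0.74 between wild-type replicate 1 and the other wild-type replicates. CTNNB1 itself, whose counts do not tell the alleles apart, had 18704, 17838 and 18582 normalized counts in mutant and 18594, 12532 and 12923 in wild-type cells (log2 fold change 0.35, adjusted p = 0.150, limma). The epithelial marker KRT8 led the colorectal epithelial markers, whose summed level was 29879 to 40574 in mutant and 45108 to 46521 in wild-type cells (1 of 9 tested higher and 3 lower in mutant cells). Of 12 leukocyte markers measured, 6 lay under the filter on low values, PTPRC, the pan-leukocyte marker, among them with at most 4.43 normalized counts. Their summed level was 1007 to 1605 in mutant and 3887 to 5987 in wild-type cells and came mostly from CD68 (4 of 6 tested lower in mutant cells). The 12 fibroblast and endothelial markers, 7 of them under the filter, summed to 2049 to 4568 in mutant and 3724 to 4861 in wild-type cells, mostly COL1A1 (2 of 5 tested lower in mutant cells). The part of these markers in the results below was not tested, and in bulk RNA fewer cells of a type and less RNA per cell cannot be told apart.

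Of the 51 genes, 45 reached a mean of 10 normalized counts and were tested with limma on the log2(value + 1) scale. At an adjusted p under 0.05, 7 were higher in mutant cells, namely IFIT5, OAS3, DDX58, PARP9, TRIM21, IRF2 and IFNGR2 (15.6% of those tested). A further 9 were lower in mutant cells, namely ISG15, OAS1, ISG20, IFITM3, BST2, DHX58, PML, IRF1 and IRF7 (20.0%). Over all 14539 genes tested, 17.3% were higher and 10.0% lower in mutant cells. At an unadjusted p under 0.05, 15 members were higher and 15 lower, against 32.3% and 17.8% of all genes. The median log2 fold change, mutant over wild-type, was 0.03 over the 45 genes and 0.24 over all genes, with 21 of the 45 above the all-gene median and 24 below it. Their median size of change was 0.84, against 0.62 over all genes. In 27 of the 45 genes (60.0%) the mutant and wild-type values did not overlap, against 45.7% of all genes, with 11 of the 27 higher and 16 lower in mutant cells. Genes that passed the test thus lay in both directions, also within the oligoadenylate synthetases, the RNA sensors and the transcription factors.

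The split between higher and lower genes depended on the scaling. With TMM factors on the recovered reads (edgeR) the median of all genes fell to 0.01, and 5 members were higher and 12 lower in mutant cells, against 12.3% and 11.2% of all genes. DESeq2 gave 9 higher and 16 lower, against 21.7% and 20.6% of all genes, and limma on values rescaled by TMM factors gave 6 higher and 14 lower, against 14.9% and 14.5%. Beyond the genes that limma called, edgeR called SP100, STAT2 and IRF3 lower in mutant cells, and DESeq2 called these and IFI27, USP18, IRF9 and TYK2 lower and IFIT2 and IFNAR1 higher. The calls also depended on which libraries were in the fit. Without mutant replicate 2, mutant replicate 3, wild-type replicate 2 or wild-type replicate 3, limma called 0 members in either direction, with 7, 9, 7 and 7 higher and 9, 10, 10 and 11 lower at an unadjusted p under 0.05. Over all 14539 genes limma called 6 and 5 higher and 17 and 15 lower without mutant replicate 2 or mutant replicate 3. It called 0 without wild-type replicate 2 or wild-type replicate 3. At an unadjusted p under 0.05, limma in these fits had 2667, 2731, 2648 and 2739 of all genes higher and 1549, 1569, 1520 and 1604 lower. Without mutant replicate 1 it called 11 members higher and 16 lower, against 35.6% and 21.2% of all genes. Without wild-type replicate 1 it called 19 higher and 11 lower, against 34.1% and 15.3% of all genes. Without replicate 1 of both lines limma called 20 members higher and 19 lower, against 53.1% and 29.1% of all genes.

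**Figure D1:**
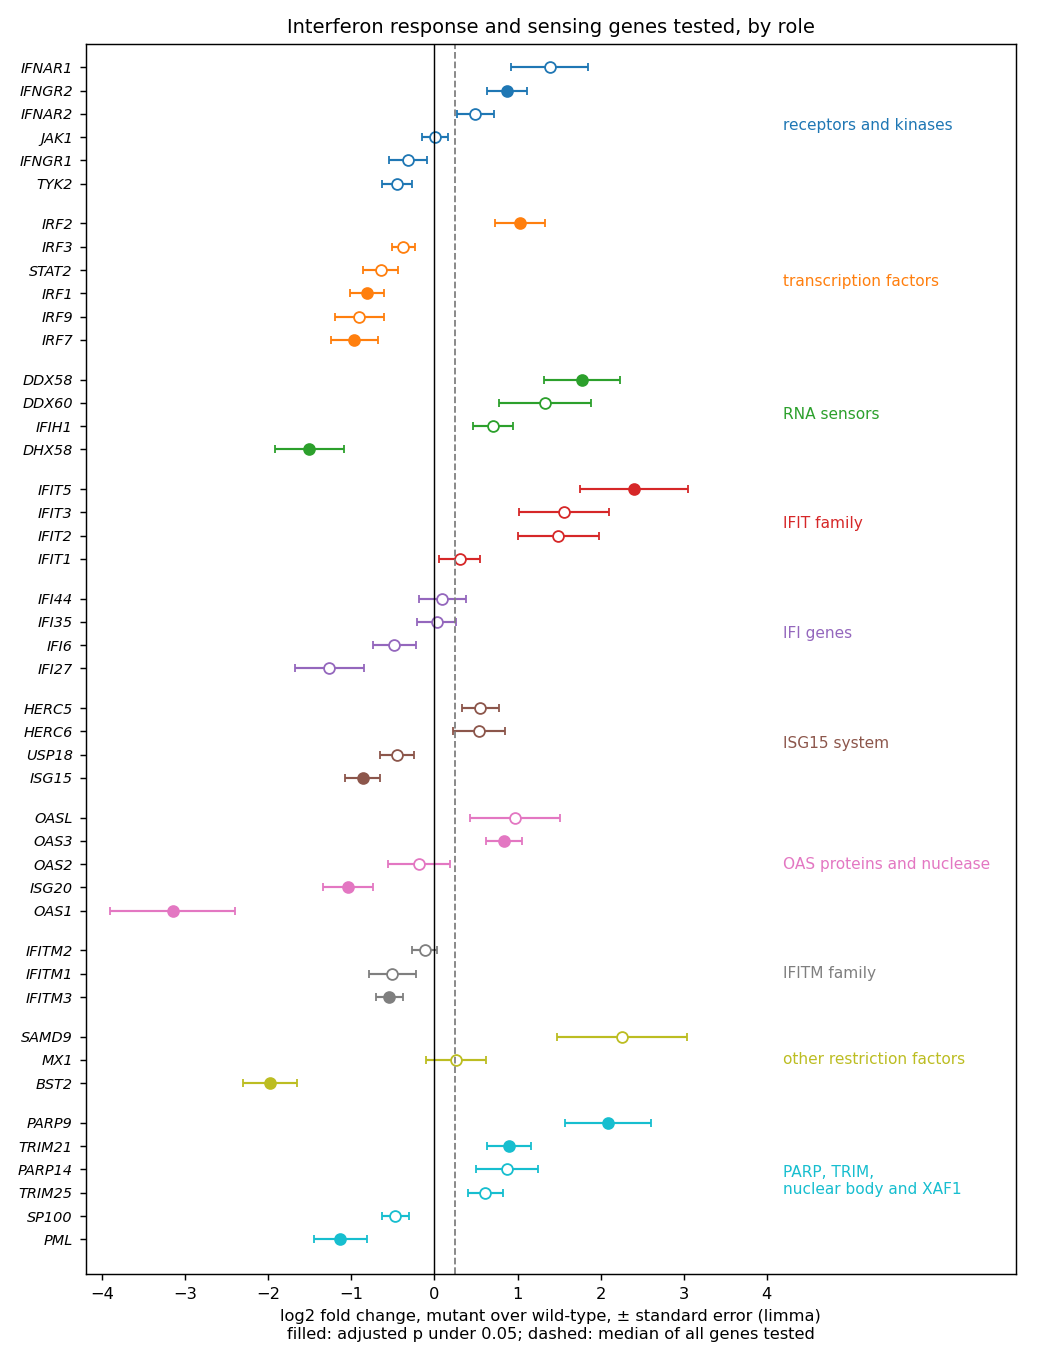
Log2 fold change, mutant over wild-type, of the 45 interferon genes tested, grouped by role, with bars for the standard error (3 replicates per line) and filled points for an adjusted p under 0.05. The 7 filled points to the right belong to 6 different groups of genes, and the dashed line marks the median of all genes at 0.24.

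At the cell surface, 1 of the 4 interferon receptor chains passed the test. IFNGR2, the signalling chain of the type II interferon receptor, had 1461, 2461 and 2337 normalized counts in mutant and 1299.9, 1007 and 1047 in wild-type cells. The lowest mutant value lay above the highest wild-type value, and the log2 fold change was 0.87 ± 0.24 (SE, adjusted p = 0.0435, limma). IFNGR1, which binds interferon gamma, had 3679, 2453 and 2518 in mutant and 2807, 4078 and 3849 in wild-type cells, with overlapping groups (log2 fold change -0.32, adjusted p = 0.278). IFNAR1, a chain of the type I receptor, had 921, 2600.2 and 2664 normalized counts in mutant and 1099, 597 and 545 in wild-type cells. The difference lay in replicates 2 and 3, while mutant replicate 1 fell below wild-type replicate 1. Its log2 fold change of 1.38 ± 0.47 (SE) missed the threshold (adjusted p = 0.0587, limma) and was 2.20 without replicate 1 of both lines. IFNAR2, the other type I chain, had 925, 1139 and 1132 in mutant and 969.7, 646 and 684 in wild-type cells, where the groups also overlapped (log2 fold change 0.49, adjusted p = 0.112).

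The receptor-bound kinases did not pass the test with limma. JAK1, which serves both receptor types, had 4645, 4507 and 4425 normalized counts in mutant and 5440.1, 3962 and 4227 in wild-type cells. Its log2 fold change was 0.01 on the deposited scaling and -0.22 with edgeR. TYK2, the partner kinase at the type I receptor, had 2931, 2263 and 2179 in mutant and 2862, 3665 and 3497 in wild-type cells (log2 fold change -0.45, adjusted p = 0.0883, limma), and DESeq2 gave an adjusted p of 0.0355. For both kinases the mutant and wild-type values overlapped.

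The interferon genes themselves were at or near 0. Of 23 interferon ligand and lambda receptor genes listed, 8 had a row in the table, and the 6 ligands among them (IFNA1, IFNE, IFNK and the lambda genes IL29, IL28A and IL28B) had 0 to 6.14 normalized counts in every sample. The 15 others were not analysed here. The lambda receptor chain IL28RA (IFNLR1) had 928, 835 and 799 normalized counts in mutant and 1434, 2150.5 and 2163 in wild-type cells. All mutant values lay below all wild-type values, and the log2 fold change was -1.14 ± 0.21 (SE, adjusted p = 0.0358, limma). IL10RB, the chain that pairs with it, had 947, 1245 and 1252 in mutant and 998, 651 and 749 in wild-type cells and overlapped (adjusted p = 0.100).

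Among the 6 transcription factors the mutant and wild-type values did not overlap for any gene, 1 being higher and 5 lower in mutant cells, where 45.7% of all genes did not overlap either. IRF2, known mainly as a repressor that competes with IRF1 for the same DNA sites, had 467, 384 and 373 normalized counts in mutant and 285, 145 and 189.8 in wild-type cells. Every mutant replicate lay above every wild-type replicate, and mutant replicate 1 and wild-type replicate 1 were the highest of their lines. The log2 fold change was 1.03 ± 0.30 (SE, adjusted p = 0.0460, limma), and edgeR gave an adjusted p of 0.0650. IRF1, an activator of interferon gamma targets, had 1038, 769 and 843 in mutant and 1263, 1663 and 1739 in wild-type cells. Its values were lowest in mutant replicates 2 and 3 and highest in wild-type replicates 2 and 3 (log2 fold change -0.81 ± 0.21, adjusted p = 0.0415, limma). IRF7, the factor that amplifies transcription of the type I interferon genes, had 827, 631 and 589 in mutant and 889.9, 1589 and 1622 in wild-type cells. Wild-type replicate 1 stood close to mutant replicate 1, and the other wild-type values were far above the mutant ones (log2 fold change -0.97 ± 0.28, adjusted p = 0.0462, limma).

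The remaining 3 factors were lower in every mutant than in every wild-type replicate but missed the threshold with limma. Their calls depended on the test, since edgeR gave an adjusted p of 0.0477 for STAT2 and 0.0410 for IRF3, and DESeq2 gave 0.0115 for IRF9. STAT2, a subunit of the complex that binds the response element, had 2363, 1608 and 1467 normalized counts in mutant and 2905, 2758 and 2685 in wild-type cells (log2 fold change -0.65 ± 0.21, adjusted p = 0.0521, limma). IRF9, the DNA-binding subunit of that complex, had 616, 299 and 357 in mutant and 821, 729 and 724 in wild-type cells (log2 fold change -0.91 ± 0.29, adjusted p = 0.0541). IRF3, which acts below the RNA sensors, had 1909, 1820.1 and 1813 in mutant and 2527, 2362 and 2296 in wild-type cells (log2 fold change -0.37 ± 0.14, adjusted p = 0.0727). These values were close to each other within each line for IRF3, whose mutant replicates differed by far less than the lines did.

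**Figure D2:**
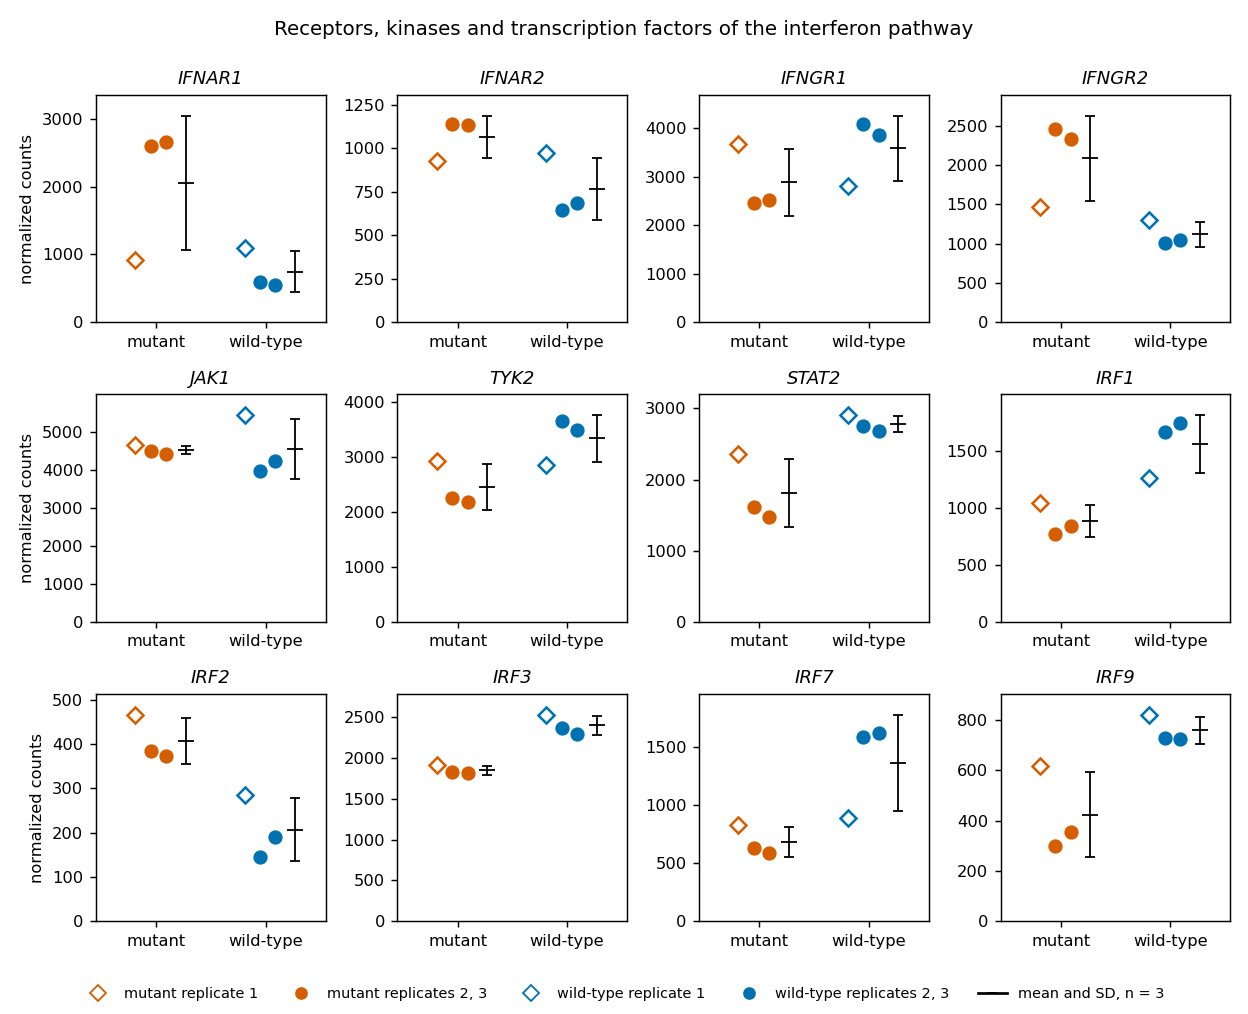
Normalized counts of receptors, kinases and transcription factors in each replicate of the mutant (left) and wild-type (right) cells, with the mean and SD of 3 replicates and open diamonds for replicate 1. For IRF2 the mutant points lie above all wild-type points, and for IRF1, IRF3, IRF7, IRF9 and STAT2 they lie below them.

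The RNA sensors split. DDX58 encodes RIG-I, which binds the ends of short viral RNAs, and had 160.0, 428 and 400.1 normalized counts in mutant and 131, 70.8 and 71.6 in wild-type cells. Mutant replicate 1 was close to wild-type replicate 1, while replicates 2 and 3 were far apart, and the groups did not overlap. The log2 fold change was 1.78 ± 0.46 (SE, adjusted p = 0.0418, limma). DHX58 encodes LGP2, which regulates the other sensors, and had 161, 54.2 and 81.7 in mutant and 207, 291 and 276 in wild-type cells. All mutant values were below all wild-type values (log2 fold change -1.51 ± 0.42, adjusted p = 0.0435, limma). IFIH1 encodes MDA5, the sensor of long double-stranded RNA, and had 407, 354 and 326 in mutant and 266, 215 and 189.8 in wild-type cells. These groups did not overlap either, although the adjusted p was 0.0605 (log2 fold change 0.70 ± 0.24, limma). DDX60, a helicase linked to RIG-I signalling, had 179, 279 and 266 in mutant and 232, 55.3 and 63.3 in wild-type cells, which overlapped (log2 fold change 1.33, adjusted p = 0.0943). The lowest DDX60 value of the mutant line and the highest of the wild-type line were both in replicate 1.

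Promoters of 4 effectors are shown because these genes carry copies of the response element close to their start and yet differed in direction, IFIT5 and OAS3 being higher and ISG15 and BST2 lower in mutant cells. The windows are RefSeq sequence (GRCh38.p14) of 250 bases before to 50 after the gene start, written on the strand of the gene. Capitals mark matches to the core of the response element, searched as GAAA, any 2 bases and a second GAAA on either strand (read on the other strand as TTTC, any 2 bases and TTTC). IFIT5 lies at chr10:89414318-89414617 on the plus strand, OAS3 at chr12:112938224-112938523 on the plus strand, ISG15 at chr1:1013247-1013546 on the plus strand and BST2 at chr19:17405581-17405880 on the minus strand.
IFIT5: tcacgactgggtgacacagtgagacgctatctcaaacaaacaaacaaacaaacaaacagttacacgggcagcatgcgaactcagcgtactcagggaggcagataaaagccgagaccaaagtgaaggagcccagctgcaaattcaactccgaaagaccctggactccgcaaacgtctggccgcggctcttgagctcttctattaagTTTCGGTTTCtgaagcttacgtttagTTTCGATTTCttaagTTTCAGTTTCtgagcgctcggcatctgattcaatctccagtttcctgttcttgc
OAS3: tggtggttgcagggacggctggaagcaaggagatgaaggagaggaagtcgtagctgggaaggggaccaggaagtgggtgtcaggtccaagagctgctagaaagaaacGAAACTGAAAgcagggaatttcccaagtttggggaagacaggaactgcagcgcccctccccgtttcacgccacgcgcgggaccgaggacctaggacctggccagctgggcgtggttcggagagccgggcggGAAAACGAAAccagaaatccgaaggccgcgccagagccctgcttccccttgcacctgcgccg
ISG15: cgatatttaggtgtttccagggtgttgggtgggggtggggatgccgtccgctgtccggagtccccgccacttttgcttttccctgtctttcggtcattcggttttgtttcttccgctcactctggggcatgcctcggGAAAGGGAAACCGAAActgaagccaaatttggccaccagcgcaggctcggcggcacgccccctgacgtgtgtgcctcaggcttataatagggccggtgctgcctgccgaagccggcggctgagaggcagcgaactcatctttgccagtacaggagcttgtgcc
BST2: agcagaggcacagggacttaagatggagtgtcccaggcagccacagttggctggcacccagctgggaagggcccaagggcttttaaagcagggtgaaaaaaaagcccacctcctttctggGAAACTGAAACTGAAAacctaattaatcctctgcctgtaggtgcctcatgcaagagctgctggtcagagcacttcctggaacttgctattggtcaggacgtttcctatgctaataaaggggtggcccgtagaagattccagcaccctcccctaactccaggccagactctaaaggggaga
IFIT5 has 3 matches, beginning 45, 19 and 4 bases before the start. OAS3 has 2, at 143 and 12 bases before it. In ISG15 (113 and 107 bases before the start) and in BST2 (130 and 124) the 2 matches overlap and share 4 bases, so that the capitals form 1 run. In BST2 the first match also overlaps a match to TTCNNNGAA, the pattern of the gamma-activated site, where N is any base.

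Over the 51 genes, 38 matched a RefSeq window, and 20 of these held the response element core on either strand (52.6%), against 1255 of 35116 promoters of the same length (3.57%). TTCNNNGAA was in 9 of the 38 (23.7%), against 7.66% of all promoters. Most of these genes are known targets of interferon, so the share describes the list. Of the members tested, 19 had a match to the response element core, with 3 higher and 4 lower in mutant cells, and 15 had a window with no match, with 3 higher and 2 lower. Their shares were 15.8% and 21.1% with a match and 20.0% and 13.3% without, against 17.3% and 10.0% of all genes. The search fixed 2 bases between the copies of GAAA, so a window with no match may hold copies at another spacing. The windows of OAS1 (lower) and DDX58 (higher), for example, hold GAAACGAAA. Windows for IFIT2, USP18, OAS2, OASL, IFITM2, MX2, TRIM22, DHX58, PML, IRF2, IRF3, IRF7 and IFNAR2 were not used here.

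In the IFIT family, whose proteins bind viral RNA and block its translation, all 4 log2 fold changes were above 0 on every scaling tried, and 1 passed the test. IFIT5 had 553, 1721 and 1624 normalized counts in mutant and 545, 137 and 139.9 in wild-type cells. Replicate 1 of the mutant and of the wild-type line were nearly equal, and in replicates 2 and 3 the mutant values were far above the wild-type ones. The log2 fold change was 2.40 ± 0.65 (SE, adjusted p = 0.0429, limma). IFIT2 had 49.96, 85.2 and 84.9 in mutant and 47.9, 20.7 and 15.0 in wild-type cells. These groups barely failed to overlap, with mutant replicate 1 just above wild-type replicate 1 (log2 fold change 1.49 ± 0.49, adjusted p = 0.0558). IFIT3 followed the same replicates, at 53.8, 92.9 and 92.3 in mutant and 57.7, 19.01 and 15.0 in wild-type cells, but overlapped (log2 fold change 1.56, adjusted p = 0.0639). IFIT1 had 661, 517 and 545 in mutant and 611, 401 and 405 in wild-type cells with overlapping groups (log2 fold change 0.30, adjusted p = 0.337).

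ISG15, a ubiquitin-like protein that is conjugated to others during the response, was the most abundant of the 51 genes per kb of exon, at a mean of 2896 normalized counts per kb over the 6 samples. It had 1939, 1538 and 1823 normalized counts in mutant and 2462, 3426 and 3875 in wild-type cells. Every mutant value lay below every wild-type value (log2 fold change -0.86 ± 0.21, adjusted p = 0.0412, limma). Among the 51 genes, those that act on it did not pass the test. HERC5, the main ligase for ISG15 in human cells, had log2 fold change 0.55 (adjusted p = 0.0866), its relative HERC6 0.53 (0.198), and USP18, the protease that removes ISG15, -0.45 (0.119).

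The oligoadenylate synthetases sense double-stranded RNA and activate RNase L. OAS3, with 3049, 3621 and 3426 normalized counts in mutant and 2541, 1585 and 1635 in wild-type cells, was the most abundant of them per kb of exon, and its groups did not overlap. Its log2 fold change was 0.84 ± 0.22 (SE, adjusted p = 0.0417, limma). OAS1, from the same cluster on chromosome 12, went the other way, with 15.2, 2.21 and 1.06 normalized counts in mutant and 40.5, 37.2 and 46.6 in wild-type cells. These rest on 24, 2 and 1 reads in mutant and 33, 43 and 28 reads in wild-type cells, and the mutant values in replicates 2 and 3 were at or under 3 reads. The log2 fold change was -3.15 ± 0.75 (SE, adjusted p = 0.0410, limma), and the groups did not overlap. OAS2 (-0.19, adjusted p = 0.695) and OASL (0.97, 0.184) overlapped between the lines. ISG20, an exonuclease that degrades viral RNA, had 379, 211 and 255 in mutant and 428, 605 and 691 in wild-type cells. All mutant values were below all wild-type values (log2 fold change -1.04 ± 0.30, adjusted p = 0.0459, limma).

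Among the restriction factors at membranes, BST2 had the largest change relative to its error of the 45 genes. BST2 encodes tetherin, which holds budding virus particles at the cell surface, and had 201, 122 and 129 normalized counts in mutant and 406, 648 and 751 in wild-type cells. Mutant replicate 1 and wild-type replicate 1 came nearest to each other, and the highest mutant value still lay well below the lowest wild-type value. The log2 fold change was -1.98 ± 0.33 (SE, adjusted p = 0.0299, limma). The IFITM proteins, which block virus entry, all had log2 fold changes below 0 on every scaling tried, and 1 of 3 passed the test. IFITM3, next to ISG15 in abundance with 1883 normalized counts per kb, had 4418, 4319.6 and 4265 in mutant and 5203, 6843 and 7088 in wild-type cells. The groups did not overlap (log2 fold change -0.54 ± 0.16, adjusted p = 0.0462, limma), and with no filter on low values the adjusted p was 0.0508. IFITM2, next in abundance at 928 per kb, had 1324, 1454 and 1510.2 in mutant and 1480.3, 1547 and 1629 in wild-type cells, which overlapped (adjusted p = 0.534). IFITM1 missed the threshold (log2 fold change -0.51, adjusted p = 0.185), although its groups did not overlap. The IFITM genes are close copies of each other, so the division of reads between them is uncertain. IFNGR1, the next most abundant gene of the list, stood at 910 normalized counts per kb.

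PARP9 and its neighbour PARP14 encode ADP-ribosyltransferases of the antiviral response. PARP9 had 224, 579 and 553 normalized counts in mutant and 185, 73.4 and 66.6 in wild-type cells. As for DDX58, replicate 1 of the lines differed little and the groups did not overlap (log2 fold change 2.09 ± 0.52, adjusted p = 0.0413, limma). PARP14 did not pass the test (log2 fold change 0.87, adjusted p = 0.100). TRIM21, a cytosolic antibody receptor and ubiquitin ligase, had 481, 706 and 739 in mutant and 417, 295 and 315 in wild-type cells. All mutant values were above all wild-type values (log2 fold change 0.90 ± 0.26, adjusted p = 0.0452, limma), and edgeR gave an adjusted p of 0.0528. TRIM25, the ligase that acts on RIG-I, missed the threshold (0.61, adjusted p = 0.0625). Both nuclear body genes had negative log2 fold changes. PML, the organizer of these bodies, had 2021, 1084 and 1054 in mutant and 2085, 3324 and 3537 in wild-type cells. The replicate 1 values were almost the same in the mutant and wild-type line, and the groups still did not overlap (log2 fold change -1.14 ± 0.32, adjusted p = 0.0437, limma). SP100, another body component, missed the threshold without overlap of the groups (log2 fold change -0.47, adjusted p = 0.0647, limma), and edgeR gave 0.0414.

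**Figure D3:**
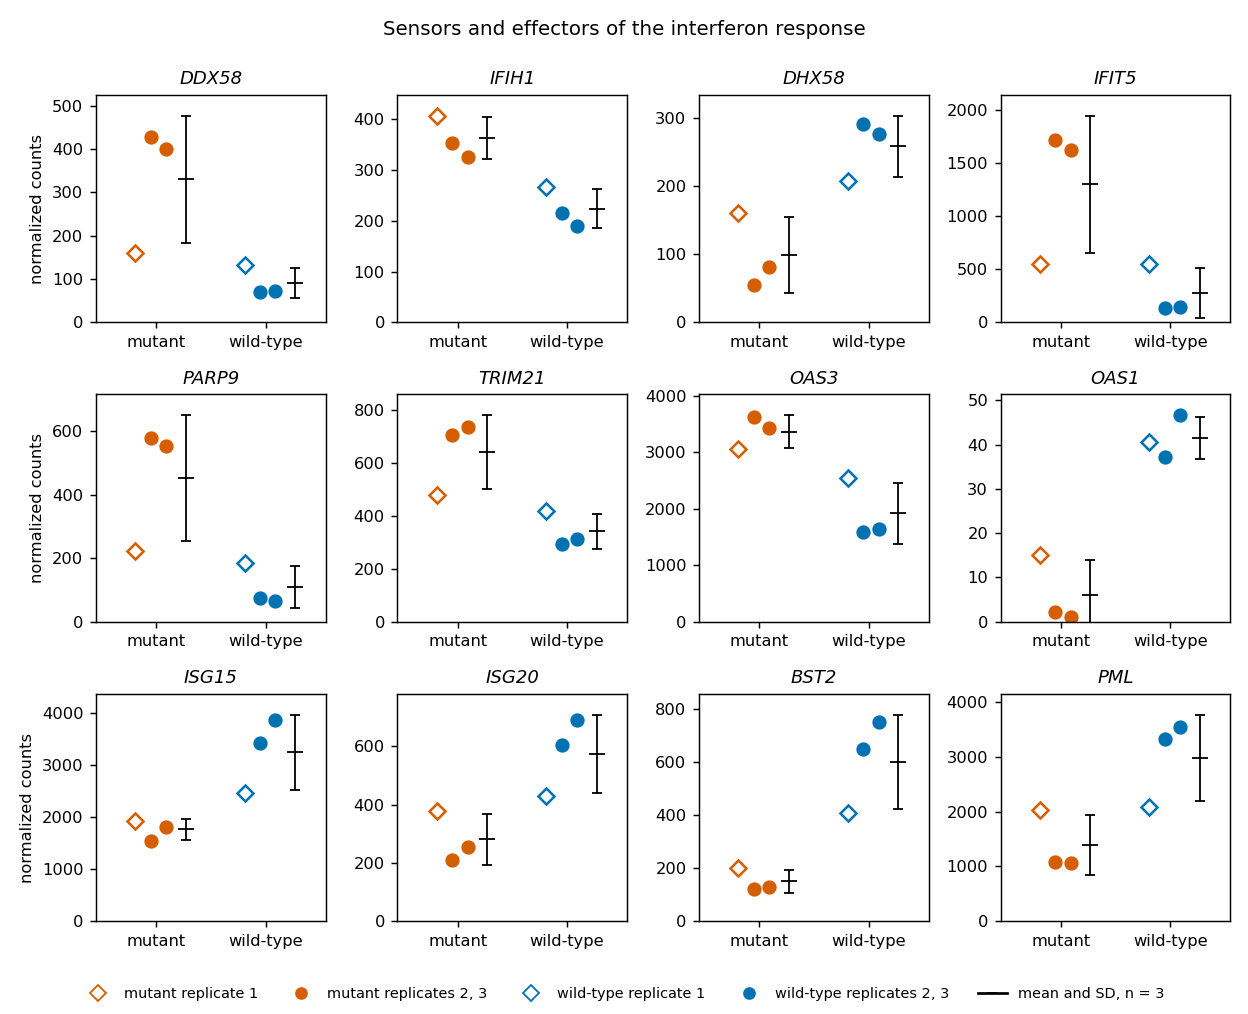
Normalized counts of RNA sensors and antiviral effectors in each replicate of the mutant (left) and wild-type (right) cells, with the mean and SD of 3 replicates and open diamonds for replicate 1. DDX58, IFIH1, IFIT5, PARP9, TRIM21 and OAS3 lie higher in mutant cells and DHX58, OAS1, ISG15, ISG20, BST2 and PML lower, and for IFIT5 the diamonds of the lines stand at almost the same height.

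The remaining effectors did not pass the test. Of the 4 IFI genes tested, IFI27, a mitochondrial protein gene, had 132, 66.4 and 46.7 normalized counts in mutant and 149, 187 and 209.8 in wild-type cells. The groups did not overlap (log2 fold change -1.27 ± 0.42, adjusted p = 0.0556, limma). IFI6, IFI35 and IFI44 had log2 fold changes of -0.48, 0.03 and 0.10, and the sign of the last 2 turned on other scalings. SAMD9, a growth regulator that restricts poxviruses, had 15.2, 27.7 and 15.9 normalized counts in mutant and 13.5, 0.864 and 1.67 in wild-type cells, or 24, 25 and 15 against 11, 1 and 1 reads. Its groups did not overlap, wild-type replicate 1 lying close below the mutant values (log2 fold change 2.26 ± 0.79, adjusted p = 0.0634). MX1, a GTPase that restricts influenza virus, stayed between 27.0 and 53.1 normalized counts in the 6 samples and overlapped. The 6 genes under the filter, IFI44L, MX2, RSAD2, SAMD9L, TRIM22 and XAF1, had at most 12 reads in any sample, so differences in them were not detectable at this depth.

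The differences between the lines depended on the replicate number. Over the 45 genes the median size of the log2 difference between the lines was 0.25 for replicate 1, 1.19 for replicate 2 and 1.02 for replicate 3. Over all genes it was 0.23, 0.88 and 0.91, so that the members shared this pattern with the rest of the transcriptome. For IFIT5, the difference was 0.02 in replicate 1 and 3.59 as the mean of replicates 2 and 3. BST2 and OAS1 were the 2 members with a difference beyond 1 in size in replicate 1, at -1.01 and -1.36. For 15 of the 45 genes (33.3%) the sign in replicate 1 was opposite to that of the mean of replicates 2 and 3, against 41.9% of all genes, and DDX60, IFNAR1, OASL and IFIT3 were among the 15. Whether same-numbered samples belong together was not settled, so these differences are a description of which libraries hold the contrast.

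**Figure D4:**
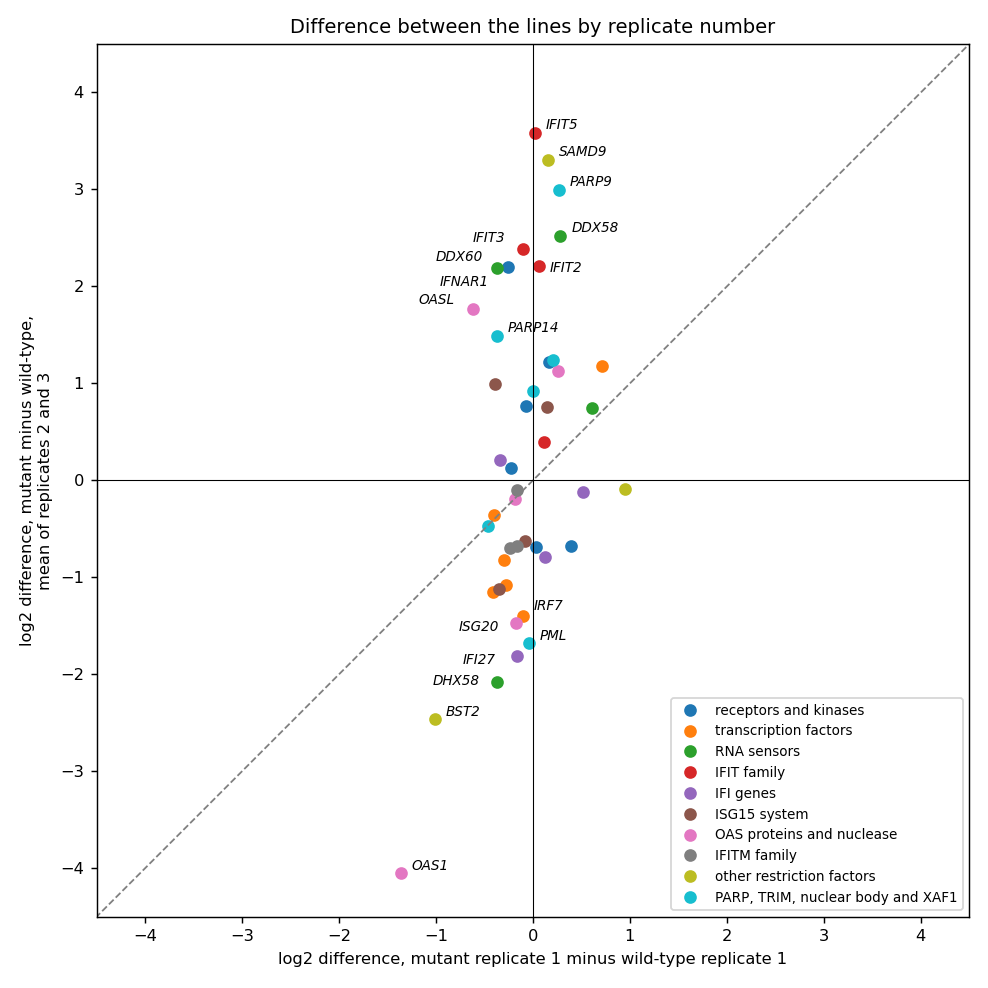
Log2 difference, mutant minus wild-type, of each of the 45 genes in replicate 1 (horizontal) and as the mean of replicates 2 and 3 (vertical), coloured by role, with equal differences on the dashed line. Most points lie close to 0 on the horizontal axis, while OAS1 and BST2 stand at -1.36 and -1.01.

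Several of the genes are neighbours in the genome (positions on GRCh37). The receptor genes IFNAR2, IFNAR1 and IFNGR2 lie with IL10RB at chr21:34577587-34851655. All 4 genes had log2 fold changes above 0. Of 23 genes tested within 1 Mb that are not members, IL10RB among them, 2 were higher and 1 lower in mutant cells. Their median was 0.36, against 0.23 over chromosome 21. The IFIT cluster (chr10:91043451-91181362) had 7 neighbours tested, of which 2 were higher in mutant cells, with a median of 0.34. The chromosome 10 median was 0.36. Around the IFITM genes (chr11:303655-329475) 4 of 39 neighbours were higher and 8 lower, with a median of -0.12, against 0.14 over chromosome 11. Around the OAS cluster (chr12:113343661-113449528), which held OAS3 higher and OAS1 lower, 3 of 20 neighbours were higher and 1 lower.

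Some members share exon sequence with another gene, and whether the counting used strand is not given in the sources used here, so such reads cannot be assigned. PARP9 overlaps DTX3L, its partner, which had 254, 700.4 and 621 normalized counts in mutant and 205, 52.7 and 53.3 in wild-type cells. The 2 genes thus ran in parallel over the samples. IFNGR2 overlaps TMEM50B, which had 2113, 2185 and 2156 in mutant and 2622, 2584 and 2461 in wild-type cells and did not follow it. IFIT2 and IFIT3 overlap LIPA, TRIM25 overlaps DGKE and C17orf67, IRF3 overlaps BCL2L12, JAK1 overlaps RAVER2, IFNAR2 overlaps a read-through with IL10RB, MX1 overlaps TMPRSS2 and RSAD2 overlaps CMPK2.

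The rest of the pathway was read from further lists. Of 42 further interferon-stimulated genes tested, 7 were higher and 6 lower in mutant cells, with a median log2 fold change of 0.26. These shares, 16.7% and 14.3%, and this median lay near those of all genes (17.3%, 10.0% and 0.24). Without mutant replicate 2, mutant replicate 3, wild-type replicate 2 or wild-type replicate 3, limma called 0 of the 42, with 7, 7, 7 and 8 higher and 5, 4, 4 and 7 lower at an unadjusted p under 0.05. Of all 14539 genes, 2667, 2731, 2648 and 2739 were higher and 1549, 1569, 1520 and 1604 lower at that threshold in the same fits. GBP2, a guanylate-binding protein induced by interferon gamma, had 12.6, 5.53 and 1.06 normalized counts in mutant and 97.0, 235 and 215 in wild-type cells. The groups were far apart, replicate 1 included (log2 fold change -4.91 ± 0.72, adjusted p = 0.0224, limma). PRIC285 (HELZ2), a helicase, also was lower in mutant cells (-1.60, adjusted p = 0.0404), and DTX3L (2.51, 0.0413) and LAMP3 (1.18, 0.0413) were higher. Of 22 genes of nucleic acid sensing and its adaptors, 6 were higher (27.3%) and 1 lower (4.55%), with a median of 0.61, against 17.3%, 10.0% and 0.24 over all genes. TANK, an adaptor between the sensors and the kinases that activate IRF3, had 5916, 5596 and 5599 in mutant and 2144, 2117 and 1918 in wild-type cells. Its replicates were close together within each line, replicate 1 included (log2 fold change 1.47 ± 0.13, adjusted p = 0.00657, limma). RIPK1 (1.84), MYD88 (1.42) and RNF135 (1.28), which also relay sensor signals, were higher. The 1 lower gene was TLR9, a sensor of DNA in endosomes, with 32.3, 12.2 and 11.7 normalized counts in mutant and 43.0, 63.9 and 89.9 in wild-type cells (log2 fold change -1.85, adjusted p = 0.0429, limma), named after its values had been seen. Of 22 further genes of JAK-STAT signalling and its feedback, 3 were higher (13.6%) and 1 lower (4.55%), both shares being under those of all genes. SOCS1, an inhibitor of JAK kinases, had 68.9, 59.7 and 71.1 in mutant and 122, 248 and 278 in wild-type cells. It was lower in every mutant replicate (log2 fold change -1.60 ± 0.37, adjusted p = 0.0404, limma), whereas SOCS4 (2.47), SOCS3 (1.09) and the phosphatase PTPN11 (0.77) were higher.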

How the data were processed

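RNA-seq was measured in 3 mutant and 3 wild-type samples of HCT116 cells, grouped by their titles. The authors describe removal of ribosomal RNA, whereas the molecule label says polyA RNA. The submitters' processing notes name CASAVA 1.8.2, TopHat2 2.1.0, hg19, HTSeq and DESeq, and the versions of HTSeq and DESeq and the gene annotation are not given in the sources used here. The signal values, as deposited, are counts per gene scaled by the authors with a size factor for each sample. Within 0.001, 100% of the values of a sample came out as whole multiples of a step, which was taken as 1 read. The p-values and the log2 ratio deposited beside them, computed by the authors, were not used.

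Genes averaging 10 or more normalized counts over the 6 samples were tested in R 4.3.3 with limma 3.58.1 (eBayes with a trend, two-sided) on log2 values with a pseudocount of 1, which understates the change of low genes. P-values were adjusted over all 14539 genes by Benjamini-Hochberg, with a threshold of 0.05. Alternatives were edgeR 4.0.16 (quasi-likelihood test, TMM) and DESeq2 1.42.0 on the recovered reads, values rescaled by TMM factors, other filters (none, a mean of 100) and pseudocounts (0.5, 5), a replicate block, and leaving out single libraries or replicate 1 of both lines. The fits were tested on simulated counts in which no replicate stood apart from its line, so that test does not cover the replicate 1 pattern seen here. The members and lists (further interferon-stimulated genes, nucleic acid sensing, interferon ligands and lambda receptor, JAK-STAT regulators, epithelial, leukocyte and fibroblast or endothelial markers) were chosen with earlier results of these data known. Values in every sample are given for members that passed the test, for those whose groups do not overlap with a log2 fold change beyond 1, for the 4 most abundant per kb, and for receptors, kinases and transcription factors. From each further list up to 4 called genes of smallest p are named, some by their log2 fold change alone. Symbols were matched to GENCODE 44 on GRCh37 (15673 directly, 1475 through an older symbol, 1088 not, all 51 members matched). Promoters are from RefSeq. Figures were drawn with Python 3.11.15 and matplotlib 3.10.9.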

Additional observations from a re-analysis of the deposited data

How the results depend on the processing

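No member that passed the test changed sign under any alternative. Other pseudocounts (0.5, 5) changed no call of a member, a mean of at least 100 normalized counts left OAS1 untested, and no filter lost IFITM3. DESeq2 called 16 members lower and 2999 genes lower in mutant cells, and values rescaled by TMM factors gave 14 members lower. The cause of these shifts was not tested. Without replicate 1 of both lines the counts were 20 members higher and 19 lower, 7713 genes higher and 4231 lower, and 22 of the further interferon-stimulated genes higher and 10 lower. Over the fits that each left out 1 library, the members ranged from 0 to 19 higher and from 0 to 16 lower, all genes from 0 to 5181 higher and from 0 to 3080 lower, and the further interferon-stimulated genes from 0 to 16 higher and from 0 to 8 lower. The lowest counts came from leaving out replicate 2 or 3 of a line, and the highest from leaving out replicate 1 of a line. Depth was 21.8 to 57.9 M reads in genes, and OAS1 and SAMD9 rest on few reads in 1 of the lines.

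With the replicate number as a block, limma called 0 members, 0 genes overall and 0 further interferon-stimulated genes in either direction. At an unadjusted p under 0.05 in this fit, 8 of the 45 members were higher and 12 lower, against 2604 higher and 1701 lower of all 14539 genes. The deviations of same-numbered mutant and wild-type samples from their line means correlated at -0.53, -0.43 and -0.31. No sample correlated best with its own number. Replicate 1 of each line lay toward the other line, which by itself gives deviations of opposite sign. These correlations therefore cannot settle whether same-numbered samples belong together.

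The sign turned for 5 members near 0. IFI35 had a log2 fold change of -0.20 with edgeR, -0.21 with DESeq2 and -0.21 on values rescaled by TMM factors, and between -0.081 and 0.13 without single libraries. IFI44 had -0.10, -0.11 and -0.14 in these 3 fits, -0.12 without replicate 1 of both lines, and between -0.074 and 0.27 without single libraries. JAK1 had -0.22, -0.23 and -0.22 in the 3 fits and between -0.084 and 0.14 without single libraries. MX1 had -0.0060 with DESeq2 and -0.085 without replicate 1 of both lines. OAS2 lay between -0.43 and 0.021 without single libraries.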
